A study of Homo sapiens with 10 samples.

Results

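*SMARCA4* and *SMARCA1* encode the ATPases of different chromatin remodelers, and the 4 libraries described here set the knockdown of the first directly against the knockdown of the second in VCaP cells, an established human prostate cancer cell line. They are the 2 libraries transfected with *SMARCA4* siRNA B and the 2 transfected with *SMARCA1* siRNA C, out of 10 libraries in the series. They were selected on the levels of interferon-related genes, each siRNA being that of its target with the stronger interferon response, so those levels are given below without a test. Every siRNA library was harvested 72 h after transfection of 30 pmol siRNA with Lipofectamine RNAiMAX, a lipid reagent. The other groups are *SMARCA4* siRNA A, *SMARCA1* siRNA A and the control, also with 2 libraries each, and the siRNA and dose of the control are not named in the labels. VCaP is a single cell line, and nothing says whether the 2 libraries of a group came from separate cultures, so p-values measure only the spread between these libraries.

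SMARCA4, also called BRG1, is one of the alternative catalytic subunits of the SWI/SNF (BAF) complexes, which slide and evict nucleosomes and open enhancers and promoters. SMARCA1, also called SNF2L, is an ATPase of the ISWI family, whose complexes mainly slide nucleosomes into evenly spaced arrays. Transfected double-stranded RNA can be sensed by cytosolic receptors that switch on type I and type III interferons and, through them, a broad set of interferon-stimulated genes, and this response is seen with many targets and sequences. A comparison between siRNAs that raised those genes to like levels asks which other genes differed between the remodeler knockdowns.

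The sequences listed for the siRNAs are shown because they define the perturbation; which letter in the labels belongs to which number is not stated. In each, lower case is used throughout because no base is singled out.
SMARCA4-siRNA-1#: caaucauguacuuccaacggaucuugg
SMARCA4-siRNA-2#: ugggaagaauucuaucaagaagcucaa
SMARCA1-siRNA-1#: ggaagacaauaggcuauaagguucc
SMARCA1-siRNA-2#: ggauuguagaaagagcugagauaaa

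The *SMARCA4* sequences are 27 bases of antisense strand and the *SMARCA1* sequences 25 bases of sense strand. Over its whole length, each matched transcripts of its target gene alone in GENCODE v44. The *SMARCA4* sequences were found in 30 and 31 of 36 coding transcripts of that gene, and the *SMARCA1* sequences in 3 of 3. In the orientation that a guide strand pairs with, transcripts of 3 other genes held a run of 15 bases of SMARCA4-siRNA-1#, 0 held a run of SMARCA4-siRNA-2#, 2 held a run of SMARCA1-siRNA-1# and 4 held a run of SMARCA1-siRNA-2#, and 15 bases was the longest run. Among these genes, *C9orf72* (log2 fold change 1.56) and *RSPH4A* (2.39) were called higher with *SMARCA4* siRNA B than with *SMARCA1* siRNA C, and share their run with SMARCA1-siRNA-1# and SMARCA1-siRNA-2#, respectively. The other 6 that were tested, among them *POGK*, *DIAPH1* and *TLN2*, were not called.

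The targeted genes were low in the libraries labelled for them. Levels are given as CPM, each count divided by its TMM-scaled library total, and are compared between libraries for the same gene. *SMARCA4* (chr19:10960932-11079426, plus strand, GRCh38) had 18.6 and 13.3 CPM with *SMARCA4* siRNA B, 228 and 237 CPM with *SMARCA1* siRNA C, and the controls had 242 and 268 CPM. Between siRNA B and siRNA C the log2 fold change was -3.86 ± 0.17 (SE, adjusted p = 7.1e-06, edgeR quasi-likelihood test), a 14.6-fold difference. *SMARCA1* (chrX:129446501-129523500, minus strand) had 3.20 and 2.85 CPM with its siRNA C, 57.4 and 60.6 CPM with *SMARCA4* siRNA B, and 32.3 and 31.5 CPM in the controls. The log2 fold change was 4.29 ± 0.24 (SE, adjusted p = 4.3e-05). Both *SMARCA1* values with *SMARCA4* siRNA B lay above both controls, and this was also so with *SMARCA4* siRNA A (67.5 and 83.8 CPM). The alternative ATPases *SMARCA2*, of SWI/SNF, and *SMARCA5*, of ISWI, had log2 fold changes of 0.16 (adjusted p = 0.45) and 0.15 (adjusted p = 0.61), and were not called.

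**Figure D1:**
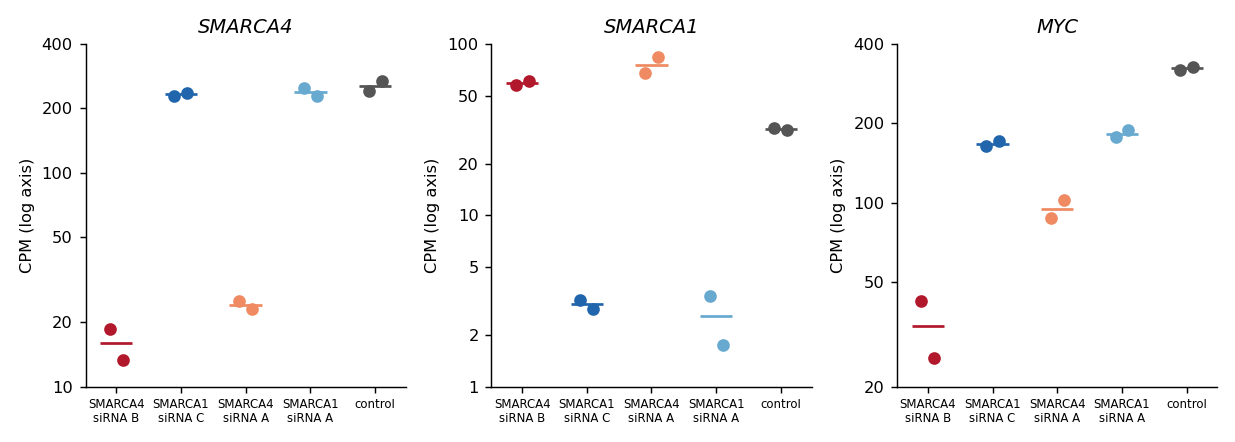
Level of *SMARCA4*, *SMARCA1* and *MYC* in each of the 10 libraries, in CPM on a log axis; points are libraries and horizontal lines are means of 2. *SMARCA4* is lowest with its siRNAs (13.3 to 25.2 CPM), *SMARCA1* with its own (1.75 to 3.4 CPM), and *MYC* with *SMARCA4* siRNA B (25.8 and 42.2 CPM).

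The interferon-related genes that chose the libraries were at like, though not identical, levels. The 42 interferon-stimulated genes took 5.13% and 4.51% of all counts with *SMARCA4* siRNA B and 5.18% and 5.24% with *SMARCA1* siRNA C, against 0.0709% and 0.0713% in the controls. With the other siRNAs their share was 3.87% and 2.03% (*SMARCA4* siRNA A) and 3.17% and 2.89% (*SMARCA1* siRNA A). The exact 95% binomial interval (Clopper-Pearson) of replicate 1 of siRNA B was 5.12% to 5.14%, and such intervals cover counting error only. Replicate 2 of siRNA B thus lay below the other 3 libraries.

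Most members stayed close between the siRNAs. The median log2 fold change of the 42 genes, siRNA B over siRNA C, was -0.19, and 28 of them lay within 0.5 of 0 on the log2 scale, while 4 lay beyond 1. *OAS3*, a synthetase of the 2-5A RNA decay pathway, had 3593 and 3794 CPM with siRNA B and 3691 and 3667 CPM with siRNA C. The antiviral GTPase *MX1* had 5525 and 4951 CPM with siRNA B, and with siRNA C 6019 and 5952 CPM. The ubiquitin-like modifier *ISG15* had 5371 and 4166 CPM against 4830 and 4921 CPM.

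The members that differed most were mainly higher with *SMARCA1* siRNA C. *IFITM1*, a membrane protein that blocks virus entry, had 375 and 187 CPM with siRNA B and 819 and 871 CPM with siRNA C, and the restriction factor *BST2* had 1132 and 549 CPM against 1842 and 1750 CPM. Their log2 differences were -1.59 and -1.10. *TRIM22* (-1.35) and *IFI27* (-1.23) were the other members beyond 1. In the opposite direction, *STAT2*, a transcription factor of the interferon receptor pathway, differed by 0.85. Among the inducers, *IFNL1*, a type III interferon, had 27.7 and 33.1 CPM with siRNA B and 32.6 and 33.9 CPM with siRNA C, and *IFNB1*, the type I interferon, had 5.50 and 6.60 against 10.1 and 9.44 CPM and was listed at 0 in both controls. Of the 11 ligand and chemokine genes measured, 10 had values below 0 (median -0.55). All 14 MHC class I genes lay within 0.5 on the log2 scale.

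**Figure D2:**
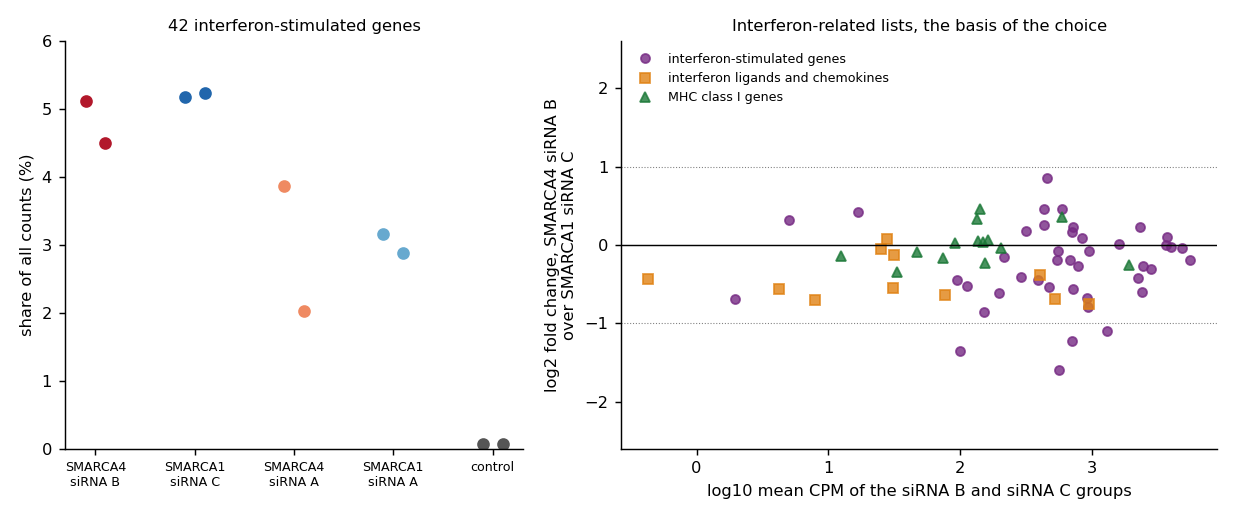
Left, share of each library's counts taken by 42 interferon-stimulated genes, in percent, 1 point per library. Right, log2 fold change of *SMARCA4* siRNA B over *SMARCA1* siRNA C against log10 mean CPM for the interferon-related lists; dotted lines mark 1 and -1, and 4 interferon-stimulated genes lie below -1.

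Promoters of the most abundant of these genes carry the interferon-stimulated response element (ISRE), searched as GAAANNGAA on both strands of 300 bases around each start site (RefSeq, GRCh38.p14). It was present in 22 of 33 promoters of interferon-stimulated genes (66.7%) and in 6.46% of the 11786 promoters of genes tested. The 30-base windows show the motif in capitals for the most abundant members.
MX1 (chr21:41420559-41420588, plus strand): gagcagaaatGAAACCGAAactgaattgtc
ISG15 (chr1:1013374-1013403, plus strand): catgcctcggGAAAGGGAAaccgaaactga
OAS3 (chr12:112938321-112938350, plus strand): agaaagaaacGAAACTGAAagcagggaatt
IFIT1 (chr10:89392498-89392527, plus strand): tagctttagtTTCACTTTCccctttcggtt
RSAD2 (chr2:6865796-6865825, plus strand): agcgggaaacGAAAGCGAAgcgttgcgggg

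In genes called higher and lower with *SMARCA4* siRNA B, the shares of promoters with the ISRE letters were 4.83% and 6.54%, next to the 6.46% of genes tested. The AP-1 letters TGANTCA stood at 5.80% and 4.55%, against 4.59% of genes tested.

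The comparison over all genes included the 67 tested members of the interferon-related lists. Of 16899 genes tested, 3001 were called (17.8%; adjusted p below 0.05), 1324 of them higher (7.83%) and 1677 lower (9.92%) with *SMARCA4* siRNA B than with *SMARCA1* siRNA C. Of the called genes, 2668 were protein coding, and 991 differed by more than 1 on the log2 scale, 504 higher and 487 lower. Outside those lists were 2999 of the calls. The lists do not hold every interferon-induced gene, and *IFI16* (-2.64), *GBP1* (-2.46) and *GBP2* (-1.80), which interferons are known to induce, were among the genes called lower, as was the pseudogene *GBP1P1* (-1.86). The median log2 fold change of all genes tested was -0.02. With library totals and no TMM scaling, 1605 were higher and 1292 lower, so the larger direction turned. The count rests on few libraries: it was 590 without replicate 2 of siRNA B, 568 and 661 without replicate 1 or 2 of siRNA C, and 4955 and 4933 without replicate 1 or 2 of *SMARCA1* siRNA A, which enter through the shared estimate of spread. Named outside the interferon lists, besides *SMARCA4*, *SMARCA1* and *MYC*, were 113 genes. Many of them lost their call without 1 library of siRNA B or siRNA C, the fewest without replicate 1 of siRNA B. Some of the 113, such as *SMARCA2*, *SMARCA5* and *IGF1R-AS1*, were not called between siRNA B and siRNA C and had no call to lose.

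The replicates of siRNA B differed in the same direction as the knockdowns. *SMARCA4* was lower in replicate 2 than in replicate 1, and so was the interferon share. Of the 1677 genes called lower, 82.5% were higher in replicate 1 than in replicate 2, as were 26.4% of those called higher and 54.9% of all genes tested. The part of knockdown depth, interferon level or other differences between these libraries in the results was not tested.

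The *SMARCA4* siRNA A and *SMARCA1* siRNA A libraries shared no library with these 4 and were not used in the selection of siRNA B and C against each other, beyond having the weaker interferon response. In them 3628 genes were called (21.5%), 1825 higher (10.8%) and 1803 lower (10.7%) with the *SMARCA4* siRNA. The genes called the same way in both pairs numbered 1546 (9.15% of genes tested), which is 51.5% of the calls of the B and C pair and 42.6% of those of the A pair, and 743 of them were higher and 803 lower with *SMARCA4* knockdown. In opposite directions 26 genes were called. The difference between the pairs, tested gene by gene, was called for 66 genes (0.391%). Without replicate 2 of siRNA B, replicate 1 or 2 of siRNA C or replicate 2 of *SMARCA4* siRNA A this count was 0, without replicate 1 of *SMARCA4* siRNA A 1, without replicate 1 of siRNA B 10, and without replicate 1 or 2 of *SMARCA1* siRNA A 246 and 1857. The 1546 became 453 without replicate 2 of siRNA B, 392 and 439 without replicate 1 or 2 of siRNA C, 867 without replicate 2 of *SMARCA4* siRNA A and 2804 without replicate 2 of *SMARCA1* siRNA A. The 3628 became 2399 and 1679 without replicate 1 or 2 of *SMARCA4* siRNA A and 6463 without replicate 2 of *SMARCA1* siRNA A. Of the 3001 calls, 2758 had the same sign in the A pair (91.9%, against 72.8% of all genes tested). In the 743 higher genes the median log2 fold change was 0.86 in the B and C pair and 0.94 in the A pair, and in the 803 lower genes it was -0.78 and -0.71.

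Against the controls, these 1546 genes were of several kinds. Of the 803 lower genes, the control mean lay above both siRNA groups in 368, between them in 283 and below both in 152, and it was nearer to *SMARCA1* siRNA C in 538. Of the 743 higher genes, the control mean lay between the groups in 361, above both in 200 and below both in 182, and it was nearer to *SMARCA4* siRNA B in 401. Both comparisons use the same control libraries, so these positions are given without a test.

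**Figure D3:**
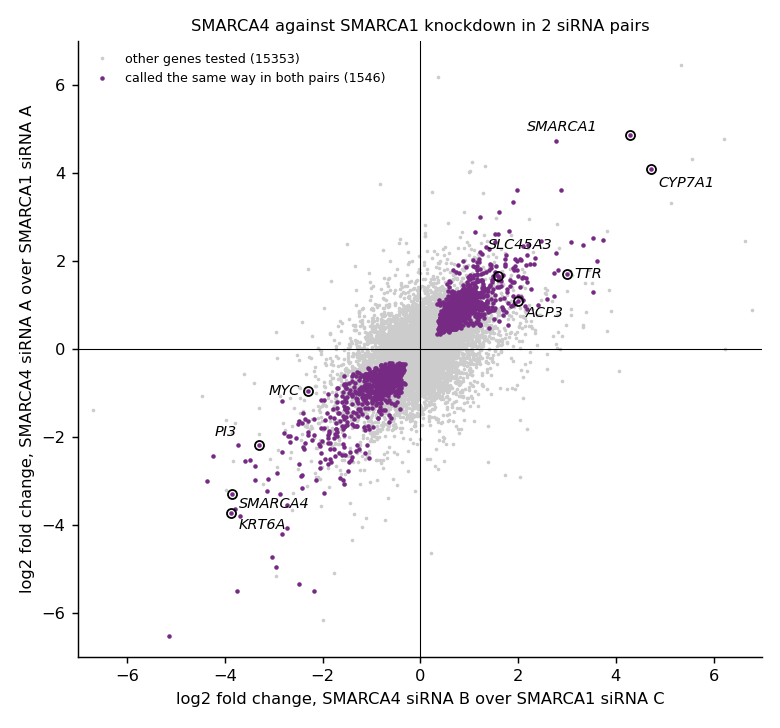
Log2 fold change of each gene tested for *SMARCA4* siRNA B over *SMARCA1* siRNA C (horizontal) and *SMARCA4* siRNA A over *SMARCA1* siRNA A (vertical); 1 gene lies outside the plotted range. The 1546 genes called the same way in both pairs are coloured, 743 at upper right and 803 at lower left, and *CYP7A1* and *SMARCA1* are among the highest of them.

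The genes that stood highest with *SMARCA4* siRNA B in both pairs, apart from *SMARCA1*, were mostly at modest levels. *CYP7A1*, the rate-limiting enzyme of bile acid synthesis, had 8.65 and 5.51 CPM with siRNA B, 0.384 and 0.15 CPM with siRNA C, while the controls had 0 and 0.186 CPM. It differed by a log2 fold change of 4.73 ± 0.47 (SE, adjusted p = 0.0006) and 4.09 in the A pair. Both siRNA B values stood above those of every siRNA C and control library. Libraries of siRNA B and siRNA C did not overlap in 70.6% of genes tested.

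*TTR*, which encodes the thyroxine carrier transthyretin, had 21.3 and 24.8 CPM with siRNA B, 3.23 and 2.49 CPM with siRNA C and 8.95 and 8.25 CPM in the controls (log2 fold change 3.01 ± 0.26 SE, adjusted p = 0.00042). The intestinal disaccharidase *SI* had 32.1 and 54.9 CPM against 6.94 and 7.55 CPM, with controls at 27.4 and 27.3 CPM (2.58 ± 0.35 SE, adjusted p = 0.0017). For both genes the controls lay between the knockdowns.

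*MAGI2*, a scaffold protein of cell junctions, had 10.3 and 15.4 CPM with siRNA B and 2.37 and 2.49 CPM with siRNA C, with 3.14 and 3.12 CPM in the controls. The synaptic membrane protein gene *CLSTN2* had 3.37 and 6.77 CPM with siRNA B and 0.960 and 1.02 CPM with siRNA C, and *SLC6A17*, a vesicular amino acid transporter of neurons, 19.4 and 24.5 CPM against 4.42 and 5.21 CPM. *PLEKHH1* was the most abundant of the group, at 81.3 and 151 CPM with siRNA B, 24.8 and 26.7 CPM with siRNA C and 95.1 and 101 CPM in the controls. *CLUL1*, *CYP4X1*, *PLEKHH2* and *SLC35G2* completed the 11, with log2 fold changes between 2.17 and 2.33. In *CLSTN2*, *CLUL1* and *PLEKHH1* the controls were near or above the siRNA B values, so the low values were those with *SMARCA1* siRNA C.

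The genes that stood lowest with *SMARCA4* siRNA B in both pairs, apart from *SMARCA4*, were mostly low in the controls. *KRT6A* (chr12:52487176-52493257, minus strand), a keratin of stressed and hyperproliferative epidermis, had 0.742 and 0.0702 CPM with siRNA B, 6.05 and 6.35 CPM with siRNA C, and 0.0418 and 0 CPM in the controls. The log2 fold change was -3.87 ± 0.72 (SE, adjusted p = 0.007) by edgeR, and by DESeq2 it was not called (adjusted p = 0.069). The siRNA C values stood above the siRNA B and control values.

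*PI3*, the elastase inhibitor elafin, had 3.68 and 1.16 CPM with siRNA B, 24.4 and 24.1 CPM with siRNA C and 0.669 and 0.706 CPM in the controls (-3.30 ± 0.49 SE, adjusted p = 0.0025). *TNS4*, a focal adhesion tensin, had 2.1 and 0.386 CPM against 12.6 and 14.1 CPM, with controls at 0.209 and 0.112 CPM. *COL17A1*, a hemidesmosome collagen, had 0.494 and 0.351 CPM against 5.09 and 3.87 CPM, and the kallikrein *KLK14* 0.371 and 0.210 CPM against 4.03 and 3.90 CPM. In these genes the siRNA C libraries lay above the controls, and the siRNA B libraries lay near the controls or between.

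*CAMKV*, a kinase-like protein of neurons, had another order, with 2.41 and 1.68 CPM with siRNA B, 15.2 and 13.3 CPM with siRNA C and 18.6 and 25.1 CPM in the controls. The receptor tyrosine kinase *EPHA8* also had its highest values in the controls (2.43 and 2.82 CPM), followed by siRNA C (1.66 and 1.11 CPM) and siRNA B (0.247 and 0.175 CPM). The complement gene *C4B* had 0.556 and 0.316 CPM with siRNA B and 4.96 and 5.07 CPM with siRNA C. Its near-identical copy *C4A* had 0.402 and 0.175 CPM against 1.504 and 1.56 CPM, and reads may be split between the copies. The same holds for *KRT6A* and its close relative *KRT6B*, at 6.89 and 1.86 CPM with siRNA B and 12.03 and 12.7 CPM with siRNA C. By edgeR, *KRT6B* was not called between siRNA B and siRNA C (-1.49, adjusted p = 0.17) or in the A pair (-0.48, adjusted p = 0.69). The less abundant relative *KRT6C* was not called either (-2.34, adjusted p = 0.11, and in the A pair -0.57, adjusted p = 0.83). *ABCB5*, *SEMG2* and *PTH2R* completed the 11, with log2 fold changes between -2.84 and -2.70.

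All of these 11 lower genes were higher in replicate 1 than in replicate 2 of siRNA B, and 10 of the 11 higher genes were lower in replicate 1, *CYP7A1* being the exception. Of the 42 interferon-stimulated genes, 33 were higher in replicate 1.

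**Figure D4:**
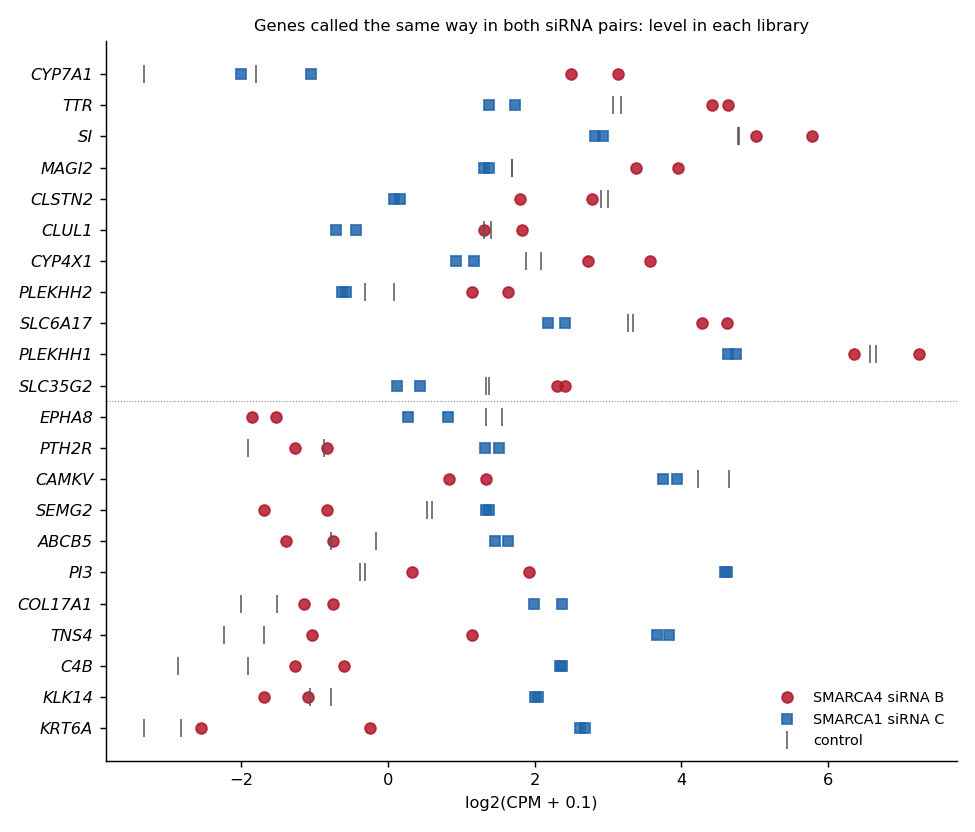
Level of the 22 named genes in the *SMARCA4* siRNA B (circles), *SMARCA1* siRNA C (squares) and control (bars) libraries, as log2(CPM + 0.1), 1 mark per library; the 11 above the dotted line are higher and the 11 below it lower with siRNA B. Circles and squares do not overlap in these rows, as in all 3001 called genes and in 70.6% of genes tested. The control bars are nearer the squares in some rows and nearer the circles in others.

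*MYC*, a transcription factor that drives cell growth, was lower with *SMARCA4* siRNA B than with *SMARCA1* siRNA C. It had 42.2 and 25.8 CPM with siRNA B, 164 and 171 CPM with siRNA C, and 318 and 328 CPM in the controls. The log2 fold change was -2.30 ± 0.20 (SE, adjusted p = 0.00042), and -0.95 in the A pair (adjusted p = 0.0079). The difference between the pairs was not called (adjusted p = 0.071). The neighbouring noncoding RNA gene *PVT1* had 19.7 and 16.7 CPM with siRNA B and 30.8 and 28.4 CPM with siRNA C, against 19.4 and 20.9 CPM in the controls (-0.70 ± 0.14 SE, adjusted p = 0.01). With siRNA B *PVT1* lay near the controls while *MYC* lay below them. The MYC dimer network list holds 12 genes, among them *PVT1*, which encodes no dimer partner. *MYC* and *PVT1* were called lower and 0 higher, beside 9.92% of all genes called lower, and the other 10 were not called.

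MYC targets V2, a list of mostly nucleolar and ribosome assembly genes that MYC activates, was lower with siRNA B. Of its 57 members, 40 were called lower, 1 higher (*MAP3K6*) and 16 were not called, with a median log2 fold change of -0.71 beside -0.02 of all genes tested. Among all genes tested, 9.92% were called lower and 7.83% higher, and in the A pair 10.7% and 10.8%. In the A pair 31 were called lower and 1 higher (median -0.47), and 25 were called lower in both pairs. *EXOSC5*, a subunit of the RNA exosome, had 6.92 and 5.54 CPM with siRNA B, 17.1 and 18.2 CPM with siRNA C and 25.5 and 27.2 CPM in the controls (-1.5 ± 0.16 SE, adjusted p = 0.00067). The nucleolar genes *NOP16* (-1.34) and *PPAN* (-1.26) and the hexokinase *HK2* (-1.38) followed. For *NOP16* the siRNA C libraries (46.2 and 42.8 CPM) lay at the level of the controls (43.2 and 48.9 CPM), with siRNA B at 20.4 and 14.6 CPM. The number called lower was 14 without replicate 2 of siRNA B and 16 and 21 without replicate 1 or 2 of siRNA C.

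The E-box CACGTG, the sequence MYC dimers prefer, was in 20 of 47 promoters of this list (42.6%), in 9.81% of promoters of genes tested, in 12.4% of those called lower and in 7.09% of those called higher with siRNA B. The windows show it in capitals in members of the lists called lower.
EXOSC5 (chr19:41397431-41397460, minus strand): taaacgctaagcCACGTGcggacgcccagg
SRM (chr1:11060200-11060229, minus strand): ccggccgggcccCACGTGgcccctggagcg
PPAT (chr4:56435780-56435809, minus strand): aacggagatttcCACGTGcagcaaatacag
LDHA (chr11:18394366-18394395, plus strand): agactcccagcgCACGTGgagcagtctgcc
SLC7A5 (chr16:87869620-87869649, minus strand): ggccggacgacgCACGTGctccgagctggg

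A match says only that the letters are present and does not show binding.

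Genes of nucleotide supply and DNA copying followed in number of calls. Of 18 purine and pyrimidine synthesis genes, 12 were called lower and 0 higher (median -0.58), and 6 were called lower in the A pair. The shares called lower among all genes tested were 9.92%, and 10.7% in the A pair. The 12 became 5 without replicate 2 of siRNA B, 7 without its replicate 1 and 6 without either replicate of siRNA C. *IMPDH2*, the entry to guanine nucleotides, had 115 and 97.9 CPM with siRNA B, 216 and 209 CPM with siRNA C and 315 and 324 CPM in the controls (-0.99 ± 0.13 SE). The ribose-phosphate supplier *PRPS2* (-1.05) and the purine enzymes *PFAS* (-0.87) and *PPAT* (-0.81) were also lower. Of 34 DNA replication genes, 13 were called lower and 0 higher (median -0.35), against 21 and 0 in the A pair, and 10 were called lower in both. The 13 became 5 and 2 without replicate 1 or 2 of siRNA B and 2 without either replicate of siRNA C. *UHRF1*, which guides maintenance DNA methylation, had 40.6 and 41.8 CPM with siRNA B and 80.3 and 79.9 CPM with siRNA C, the latter at the level of the controls (81.4 and 93.5 CPM). *MCM3*, of the replicative helicase, differed by -0.76. Of 30 mitosis genes, 7 were called lower and 0 higher, led by *CDK1* (-0.68), beside 9.92% of all genes called lower. In the A pair 2 were called lower and 2 higher, and 1 was called lower in both pairs.

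Of 21 glycolysis genes, 7 were called lower and 1 higher (median -0.48). *LDHA*, which makes lactate, had 289 and 237 CPM with siRNA B, 485 and 465 CPM with siRNA C and 861 and 706 CPM in the controls, and *ENO2*, the neuronal enolase, was the member called higher (1.07). Of 9 polyamine genes, 3 were called lower, the synthesis enzymes *ODC1* (-0.85) and *SRM* (-0.79) and the oxidase *SMOX* (-0.91). *SRM* and *HK2* also stand in the MYC list. These list counts stand beside 9.92% lower and 7.83% higher among all genes tested.

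For cholesterol synthesis and the unfolded protein response, the counts of the siRNA pairs pointed in different ways. Of 25 cholesterol synthesis genes, 7 were called lower and 1 higher, while in the A pair 1 was called lower and 3 higher. *INSIG1*, a sterol-sensing regulator, had 270 and 229 CPM with siRNA B and 407 and 407 CPM with siRNA C. Of 16 unfolded protein response genes, 5 were called lower and 0 higher, and in the A pair 0 lower and 6 higher, with list medians of -0.35 and 0.36. The endoplasmic reticulum chaperone *HSP90B1* had 1420 and 1079 CPM with siRNA B and 2116 and 2002 CPM with siRNA C, a log2 difference of -0.72, against 0.30 in the A pair (adjusted p of the difference between pairs 0.061). Neither *INSIG1* nor *HSP90B1* passed the test of the difference between pairs. These list counts stand beside 9.92% lower and 7.83% higher among all genes tested, and 10.7% and 10.8% in the A pair.

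Of 29 ATF4 targets, genes of amino acid supply that respond to stress, 11 were called lower and 1 higher. *STC2*, a secreted glycoprotein, had 17.99 and 14 CPM with siRNA B and 50.01 and 45.1 CPM with siRNA C, the latter near the controls (45.6 and 43.1 CPM). *SHMT2*, of mitochondrial serine use, differed by -1.11. Of 14 fatty acid synthesis genes, 4 were called lower and 0 higher, with *FASN* at 2830 and 2666 CPM against 3863 and 3588 CPM. In the A pair 1 of the 14 was called lower and 0 higher, with list medians of -0.14 (siRNA B and C) and 0.04 (A pair). The ATF4 and fatty acid counts stand beside 9.92% lower and 7.83% higher among all genes tested.

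Among androgen-regulated and luminal prostate genes more were called higher than lower. Of 25 androgen-regulated genes, 10 were called higher and 1 lower, with a median of 0.10, and 8 were called higher in both pairs. Among all genes tested, 7.83% were called higher, 9.92% lower and 9.15% the same way in both pairs. Values below 0 were found in 11 of the 25. In the A pair 12 were called higher and 2 lower, beside 10.8% and 10.7% of all genes tested. Without replicate 2 of siRNA B, or without either replicate of siRNA C, 5 were called higher. *SLC45A3* (prostein) had 1267 and 1651 CPM with siRNA B, 498 and 479 CPM with siRNA C and 700 and 741 CPM in the controls (1.58 ± 0.17 SE, adjusted p = 0.00067), and the A pair gave 1.67. The retinaldehyde dehydrogenase *ALDH1A3* had 35.1 and 46.6 CPM against 11.6 and 12.02 CPM, and the kallikrein *KLK4* 432 and 476 CPM against 258 and 263 CPM. For *ALDH1A3* the siRNA C values were those far from the controls (33.7 and 31.2 CPM), while for *SLC45A3* both knockdowns stood apart from the controls, on opposite sides.

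Of 15 prostate luminal genes, 4 were called higher and 0 lower, beside 7.83% and 9.92% of all genes tested. The list median was 0.215, and 6 of the 15 had values below 0. In the A pair 5 were called higher and 1 lower, beside 10.8% and 10.7% of all genes tested. *ACP3*, prostatic acid phosphatase, had 1122 and 1915 CPM with siRNA B, 392 and 367 CPM with siRNA C and 1389 and 1322 CPM in the controls (2.0 ± 0.25 SE, adjusted p = 0.0012). *FOLH1*, which encodes prostate-specific membrane antigen, had 154 and 210 CPM against 79.1 and 84.8 CPM.

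The calls in other lists stand beside 7.83% called higher and 9.92% called lower among all genes tested. Of 22 p53 targets, 5 were called higher, among them *TP53INP1* (1.37) and the kinase *PLK2* (1.24), and 4 lower, among them the cell cycle inhibitor *CDKN1A* (-1.39) and the BH3-only gene *BBC3* (-1.38). Of 14 genes of the IGF axis, *IRS2* and *IGF1R* were called higher and *IGFBP1* and *IGFBP3* lower. In the A pair 1 was called higher and 4 lower, with list medians of -0.001 (siRNA B and C) and -0.57 (A pair). Called the same way in both pairs were 1 higher and 2 lower. *IRS2*, an adaptor of insulin and IGF receptors, had 107 and 132 CPM with siRNA B, 31.5 and 35.7 CPM with siRNA C and 50.9 and 47.5 CPM in the controls (1.83 ± 0.17 SE, adjusted p = 0.00052). *IGF1R* had 470 and 644 CPM against 290 and 285 CPM (0.95 ± 0.23 SE, adjusted p = 0.019), and its antisense RNA *IGF1R-AS1* was not called (-0.19, adjusted p = 0.57). Of 17 neural and neuroendocrine genes, 5 were called higher and 0 lower, all 5 also in the A pair, led by the granin *CHGB* (71.1 and 78.0 CPM against 32.2 and 31.1 CPM). The list median was -0.04, and 10 of its 17 members had values below 0.

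Of 27 mesenchymal and matrix genes, 6 were called higher and 4 lower. *VIM*, the filament protein vimentin, had 56 and 52 counts with siRNA B and 3 and 0 counts with siRNA C, and 1.78 CPM with siRNA B stood below the 3.39 CPM of the controls. *COL3A1* had 4 and 24 counts with siRNA B and 0 and 0 with siRNA C. Of 24 epithelial junction and keratin genes, 3 were called lower, among them *LAD1* (-0.83), and 0 higher. Of 21 AP-1 and immediate early genes, 3 were called higher and 2 lower, of 17 NF-kappaB targets 0 and 2, and of 22 apoptosis regulators 1 and 4. For the NF-kappaB targets the A pair had 4 called higher and 0 lower, with list medians of -0.15 and 0.28. These counts stand beside 7.83% higher and 9.92% lower among all genes tested.

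The SWI/SNF and ISWI lists include the siRNA targets *SMARCA4* and *SMARCA1*, whose calls were set by the knockdowns. Beside 17.8% of all genes called, the few other calls do not set the remodelers' partners apart. Of 27 SWI/SNF genes tested, *ARID1A* and *SMARCD3* were called higher and *SMARCA4*, *SMARCD1*, *SMARCD2* and *ACTL6A* lower. *ARID1A*, the large DNA-binding subunit of the canonical complex, had 556 and 592 CPM with siRNA B and 388 and 408 CPM with siRNA C. Of 13 ISWI genes, *SMARCA1* and *BAZ2B* were called higher and *POLE3* lower. *POLE3*, a histone-fold subunit of the CHRAC complex and of a DNA polymerase, had 84.0 and 69.7 CPM with siRNA B, 166 and 159 CPM with siRNA C and 148 and 136 CPM in the controls (-1.08 ± 0.13 SE, adjusted p = 0.0012).

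**Figure D5:**
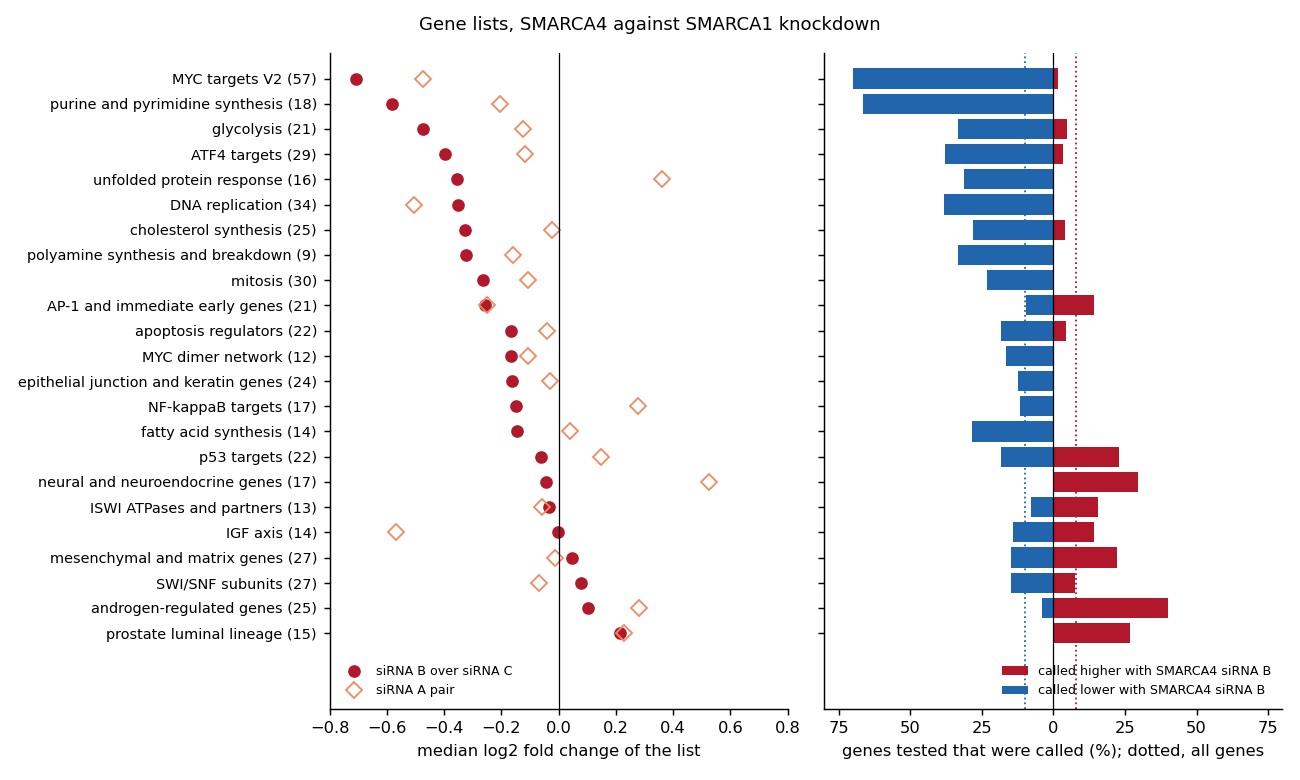
Left, median log2 fold change of each gene list for *SMARCA4* siRNA B over *SMARCA1* siRNA C (filled circles) and for the siRNA A pair (open diamonds), with the number of genes tested in parentheses. Right, percent of tested members called higher (to the right) or lower (to the left) with siRNA B; dotted lines mark 7.83% and 9.92% of all genes. MYC targets V2 and purine and pyrimidine synthesis reach furthest to the left and androgen-regulated genes furthest to the right.

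VCaP identity was present in all 4 libraries. All 12 VCaP markers, among them *ERG* and *KLK2*, had counts, and their summed level was 12993.7 and 13560.4 CPM with siRNA B and 11642.7 and 11728.1 CPM with siRNA C. Leukocyte, fibroblast and endothelial markers were low. The 6 leukocyte markers summed to 2.4 to 6.9 CPM with siRNA B and 22.7 to 23.7 CPM with siRNA C, most of it *LYZ*. The defining markers *PTPRC* and *CD3E* had no more than 1 count in any of the 4 libraries. The part of these markers in the results was not tested. The 6 fibroblast markers summed to 33.9 to 35.1 CPM and 54.5 to 55.1 CPM, and the 5 endothelial markers to 2.9 to 3.3 CPM and 1.7 to 2.1 CPM, with *CDH5* at 0 in both groups. The basal markers stood higher, with sums of 185.7 to 252.0 CPM in the 4 libraries and 191.6 to 198.4 CPM in the controls. Among them *KRT5* had no more than 1 count in the 4 libraries, so other members carried the sum. Total counts were 27752769 to 32570252 with siRNA B and 32453101 to 34667965 with siRNA C, and the upper limit for a gene without counts (3 counts) was 0.0865 to 0.108 CPM in these libraries.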

How the data were processed

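RNA of 10 VCaP libraries was sequenced, 2 for each of 5 groups taken from the labels of the samples. The authors deposited raw counts per gene, which are whole numbers without normalization. Per the labels and the study's methods, polyadenylated RNA went into a directional kit, and reads were aligned to hg38 with HISAT2 2.1.0 and counted with featureCounts 1.5.2. The annotation release behind the counts and the strand setting are not given in the sources used here.

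Low genes were removed (filterByExpr by group, with its minimum count at 10 and its minimum total at 15) and the rest were TMM-scaled and fitted by the quasi-likelihood test of edgeR 4.0.16 (R 4.3.3) to all 10 libraries as 5 groups. Contrasts were siRNA B minus siRNA C, the siRNA A pair, and their difference, with Benjamini-Hochberg adjustment over 16899 genes and calls at an adjusted p below 0.05. SE is the absolute log2 fold change over the square root of F. The fitting code was run on simulated counts with known changes as a check. Total counts lay between 23898545 and 34667965 in a library.

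Named in each direction were the 12 largest changes among protein-coding genes outside the interferon, chemokine and MHC class I lists that were called the same way in both pairs at a mean of at least 1 CPM, the 5 largest differences between pairs, up to 4 called members of each list, and in the interferon lists up to 5 by level and up to 5 by difference. The remodeler ATPases, *MYC*, *PVT1*, *IGF1R* and *IGF1R-AS1* were named in addition. Other genes named singly were picked with their values known. The members and gene lists were chosen with earlier results of these data known. Alternatives were DESeq2 1.42.0, the 4 libraries of each pair alone, other scalings and filters, a minimum fold of 1.5, the replicate number as a block and each library left out. Gene positions came with the deposited counts. Gene types and transcripts came from GENCODE v44 (of 59386 genes listed, 39004 had the same symbol, 391 an older symbol and 19991 no match). Promoters came from RefSeq (250 bases before to 50 after a start site), and siRNA sequences from the study's supplementary list. Figures were drawn with matplotlib 3.10.9.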

Additional observations from a re-analysis of the deposited data

Results flagged for a closer look

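The difference between the siRNA pairs was tested for each gene as an interaction, the log2 fold change of siRNA B over siRNA C minus that of the siRNA A pair, and 66 genes were called (0.391% of genes tested), 34 above and 32 below 0. At an unadjusted p below 0.05 there were 2235. The count was 349 by DESeq2, 618 with no filter on low counts and 0 at a minimum fold of 1.5. It was also 0 when replicate 2 of siRNA B, either replicate of siRNA C or replicate 2 of *SMARCA4* siRNA A was left out, and 1857 without replicate 2 of *SMARCA1* siRNA A.

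The 5 genes with the largest differences above 0 had log2 fold changes between -2.01 (*OLFM2*) and -1.36 (*CENPQ*) in the siRNA A pair. *OLFM2*, an olfactomedin, had 5.10 and 5.02 CPM with *SMARCA4* siRNA B, 3.33 and 3.93 CPM with *SMARCA1* siRNA C, 1.92 and 2.29 CPM with *SMARCA4* siRNA A and 7.20 and 9.91 CPM with *SMARCA1* siRNA A, a difference between pairs of 2.49 (adjusted p = 0.028). *NIPSNAP3A* differed by 2.19, the Rab11 partner *RAB11FIP4* by 1.41, the proteoglycan *SPOCK2* by 1.41 and the kinetochore gene *CENPQ* by 1.38. *CENPQ* had 16.3 and 18.8 CPM with siRNA B and 18.3 and 16.2 CPM with siRNA C, but 7.26 and 6.63 CPM with *SMARCA4* siRNA A. *ALDH1A3*, called higher in both pairs, differed between them by 1.24 (adjusted p = 0.049).

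Below 0, *NPY2R*, a neuropeptide Y receptor, had 0.927 and 0.947 CPM with siRNA B, 0.832 and 0.749 CPM with siRNA C, 2.48 and 3.02 CPM with *SMARCA4* siRNA A and 0.289 and 0.163 CPM with *SMARCA1* siRNA A (-3.32, adjusted p = 0.03). *CCDC80* differed by -2.79, the prostaglandin receptor *PTGER2* by -2.07, *RNF165* by -2.03 and *VTN*, which encodes vitronectin, by -1.87. For *CCDC80*, *PTGER2* and *VTN* the fold changes of the pairs were called in opposite directions. The pairs differ in the siRNA sequence, the depth of knockdown and the interferon share, and these cannot be told apart.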

How the results depend on the processing

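Directions of single genes held more often than the numbers of calls, but for called genes this was no test of direction. In all 3001 called genes the siRNA B and siRNA C libraries did not overlap, so omitting a library could hardly turn the sign. Many of the named genes were picked because they were called. *SMARCA4*, *SMARCA1* and *MYC* kept their direction and stayed called under all 17 alternatives, with log2 fold changes of -4.09 to -3.63, 4.21 to 4.40 and -2.66 to -1.98 when each library was left out in turn. Of 113 other named genes outside the interferon lists, changes of sign were seen in *RAB11FIP4* and *CENPQ*, neither of them called between siRNA B and siRNA C. Leaving out a library moved *RAB11FIP4* between -0.002 and 0.10 and *CENPQ* between -0.07 and 0.16, with the value of -0.06 for *CENPQ* without replicate 2 of siRNA C; the cause was not tested.

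Leaving out each library in turn gave 568 to 4955 genes called between siRNA B and siRNA C, 1679 to 6463 in the siRNA A pair, 392 to 2804 called the same way in both and 0 to 1857 for the difference between pairs. The highest counts came without a *SMARCA1* siRNA A library, the group whose replicates differed most (chi-square per gene 55.8, against 3.69 to 39.9 in the other 4 groups). Those called lower were 14 to 48 of MYC targets V2, 5 to 14 of purine and pyrimidine synthesis and 2 to 17 of DNA replication, and 5 to 12 androgen-regulated genes were called higher. A group left with 1 library is assumed to vary like the others. With the 4 libraries of each pair fitted alone, 5575 genes were called between siRNA B and siRNA C, 711 in the A pair and 560 the same way in both, and the difference between pairs has no such fit. At a minimum fold of 1.5 these counts were 360, 432 and 116, with 0 for the difference between pairs, 8 for MYC targets V2, 1 for purine and pyrimidine synthesis, 0 for DNA replication and 2 for androgen-regulated genes. DESeq2 called 349 genes for the difference between pairs, and no filter on low counts 618. DNA replication genes called lower were 8 with library totals and also 8 with no filter.

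The numbers of the libraries share no stated origin, and the deviations of same-numbered siRNA B and siRNA C libraries correlated by 0.0235 across 16899 genes. Over the 10 pairs of groups the correlation was -0.103 to 0.362, highest between *SMARCA4* siRNA A and siRNA B, with 0.266 between *SMARCA1* siRNA A and *SMARCA4* siRNA B and 0.125 within the A pair, so it was not over 0.1 in every pair. With the replicate number as a block, 3321 genes were called between siRNA B and siRNA C, 3975 in the A pair and 1763 in both, and 74 for the difference between pairs. No scaling moved the median of all genes by more than 0.1 on the log2 scale.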
